A study of Mus musculus with 2 samples.

Results

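The 10 genes described here build, load and control MHC class I, and were taken by symbol from the 27998 genes of the deposited counts: H2-D1, H2-K1, B2m, Tap1, Tap2, Tapbp, Psmb8, Psmb9, Psmb10 and Nlrc5. All 10 had a row. They were read in CD45+ leukocytes from tumors of TSA, a transplantable mammary carcinoma line of BALB/c origin. The study injected tumor cells under the skin or into the mammary fat pad, and the site used for these tumors is not given. One library (2922 cells) came from untreated mice and the other (3276 cells) from mice that drank water with 0.5% NAM (nicotinamide, a form of vitamin B3) for 10 days. Tumors of 3 mice were pooled into each library before CD45+ cells were separated on magnetic beads, so there was 1 library per group and no replicate, and no test between groups was possible. The labels give neither age nor strain of the hosts; the study placed TSA tumors in BALB/c mice. Both groups carried the same tumor line, and the untreated mice received no agent.

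MHC class I molecules consist of a polymorphic heavy chain (H2-D1 and H2-K1 encode classical ones) and the invariant light chain B2m. The immunoproteasome, whose inducible catalytic subunits are Psmb8, Psmb9 and Psmb10, cuts cytosolic proteins into peptides, Tap1 and Tap2 together pump them into the endoplasmic reticulum, and Tapbp (tapasin) holds the transporter next to empty class I molecules during loading. Nearly all nucleated cells display class I peptides to CD8+ T cells, interferons raise most genes of the pathway, and Nlrc5 is the transactivator that acts on class I promoters through factors bound at their conserved SXY module.

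Cells were placed in 14 gates by UMIs (unique molecular identifiers, each standing for 1 captured transcript) of marker genes, none of them a member, and 5285 of 6198 cells fell into a gate. The 5 macrophage gates held 1797 untreated and 1969 NAM cells: Vcam1 macrophages (482 and 473), Mmp12 macrophages (172 and 234), macrophages with both markers (54 and 86), other macrophages (888 and 970) and proliferating macrophages (201 and 206). Interferon-high myeloid cells numbered 154 and 163, Ly6c2 monocytes 212 and 226, Cd209a dendritic cells 30 and 39, mature dendritic cells 39 and 26, and cDC1 (Xcr1 Clec9a dendritic cells) 21 and 31. CD8 T cells numbered 95 and 146, CD8-negative regulatory-like T cells 82 and 81, other CD8-negative T cells 28 and 41, and NK cells 66 and 39. Marker genes that the gates did not use were mostly highest in the gate of their name: 4 of 4 for cDC1 and for mature dendritic cells, 3 of 4 for Cd209a dendritic cells, Ly6c2 monocytes and NK cells, while Lck and Cd2 summed to 1138 CPM (UMIs per 1000000 UMIs of the gate and library) in T cells against 4.73 CPM in macrophages. The gates rebuild cell types from markers and need not match those of the study.

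Cells held 3001 to 41658 UMIs, with a median per cell of 9056 for untreated and 9128 for NAM, and libraries 29161823 and 32090120 UMIs. The stress-inducible heat shock transcripts Hspa1a and Hspa1b summed to 1174 CPM in untreated and 410 CPM in NAM cells, and 6 NAM cells and no untreated cell held 10 or more haemoglobin UMIs. The 5 macrophage markers that the gates did not use, none of them at 0, summed to 778 and 659 CPM in untreated and NAM T cells, against 19449 and 18195 CPM in macrophages. The 2 libraries had 11 barcodes in common. Haemoglobin transcripts summed to 5412 CPM in NAM Ly6c2 monocytes and 8724 CPM in NAM CD8 T cells, against 21.7 and 22.1 CPM in the untreated ones. As alternatives, cells were thinned to 3000 UMIs because of depth, and the 6 haemoglobin-rich cells were left out. For ratios both were done in macrophages, Ly6c2 monocytes, dendritic cells, T cells and NK cells. They were not done in interferon-high myeloid cells or in the single gates of macrophages, dendritic cells and T cells, so depth was not addressed for the ratios of those gates. The part of the heat shock transcripts, macrophage markers and common barcodes in the results was not tested, and a difference between the groups cannot be told apart from a difference between the 2 libraries.

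The promoters of the 3 genes that make the class I molecule itself shared a spaced pair of motifs, shown here because the 3 genes had different ratios between the libraries. The table of RefSeq promoters (GRCm38.p6, the build of the deposited counts) held entries for 8 of the 10 genes, none for Tap2 or Nlrc5. The stretches below are the 150 bases before the start of transcription, read 5′ to 3′ on the strand of the gene, from chr17:35262944-35263093 (plus strand) for H2-D1, chr17:34000334-34000483 (minus strand) for H2-K1 (the downstream of its 2 listed starts) and chr2:122147537-122147686 (plus strand) for B2m. Capitals mark an interferon-type motif (GAAANNGAAA or GAANNGAAA on either strand), the X2-type TGACG and the inverted CCAAT box ATTGG.
H2-D1: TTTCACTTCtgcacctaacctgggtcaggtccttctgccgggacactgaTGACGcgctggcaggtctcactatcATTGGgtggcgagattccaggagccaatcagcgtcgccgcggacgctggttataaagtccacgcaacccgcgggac
H2-K1: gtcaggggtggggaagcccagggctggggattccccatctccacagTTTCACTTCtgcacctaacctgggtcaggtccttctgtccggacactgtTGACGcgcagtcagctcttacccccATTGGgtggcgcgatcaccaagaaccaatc
B2m: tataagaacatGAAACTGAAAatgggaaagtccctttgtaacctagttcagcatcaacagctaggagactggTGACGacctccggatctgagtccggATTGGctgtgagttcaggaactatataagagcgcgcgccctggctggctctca

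TGACG and ATTGG stood 20 bases apart in all 3 genes, a spacing found on either strand in the promoters of 27 of 27025 genes (0.0999%), which also included the nonclassical heavy chain H2-M3. TGACG was in the promoters of 6228 of these genes, and ATTGG in 11096 (41.1%). The interferon-type motif of H2-D1 and H2-K1 lay upstream on the minus strand of the promoter (GAANNGAAA, 8.68% of genes), that of B2m on the plus strand (GAAANNGAAA, 3.99% of genes). Tap1 and Psmb9 run in opposite directions, so that the 225 bases between their RefSeq starts, chr17:34187331-34187555, precede both starts. They are given on the strand of Tap1 with the only TGACG in capitals.
Tap1 and Psmb9: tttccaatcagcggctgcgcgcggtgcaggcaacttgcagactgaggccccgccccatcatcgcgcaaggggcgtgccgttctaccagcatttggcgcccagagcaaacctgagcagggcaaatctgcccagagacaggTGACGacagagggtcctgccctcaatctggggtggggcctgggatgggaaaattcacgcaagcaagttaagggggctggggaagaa

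A motif match describes these letters and is no evidence of a bound factor. The windows come from the reference strain C57BL/6, whose class I haplotype differs from that of BALB/c. BALB/c mice carry a further classical heavy chain gene, H2-L, that C57BL/6 lacks and whose sequence is close to H2-D1, so H2-D1 counts may include its transcripts and the levels of the classical chains are uncertain to that extent. In the annotation (GENCODE vM21) 7 of the 10 genes lie on chromosome 17, H2-D1 at 35262730 to 35267499 and Tap1, Psmb8, Psmb9 and Tap2 between 34181987 and 34216321, while B2m lies on chromosome 2 and Psmb10 and Nlrc5 on chromosome 8. The spans of H2-D1 and Psmb9 (34181987 to 34187764) begin upstream of the RefSeq starts in this annotation. The H2-D1 window and the stretch between Tap1 and Psmb9 therefore lie inside these spans. H2-D1 and H2-K1 have close relatives in the genome. On the reference none of the 403 windows of 98 bases (the length read from each transcript) in the last 500 bases of either transcript occurred in the transcripts of another gene, but how reads of BALB/c alleles were placed was not tested, so their counts are uncertain in level.

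H2-D1, a classical heavy chain, was higher in the NAM library in all 14 gates, whereas its partner B2m was not. In macrophages of all 5 gates together H2-D1 was at 6882 CPM in untreated and 9556 CPM in NAM cells, a log2 ratio of 0.47 (0.46 to 0.48). Intervals here and below are exact at 95%, come from 1 library per group, and cover counting error only. Of the NAM macrophages, 82.6% lay above the median untreated macrophage for H2-D1. The study singled H2-D1 out in macrophages and monocytes from these same libraries, so its direction there is not independent evidence.

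Among gates the H2-D1 ratio ran from 0.22 (0.18 to 0.26) in Ly6c2 monocytes to 0.70 (0.61 to 0.79) in mature dendritic cells, and its interval stayed above 0 in all 14. Levels went from 5573 to 9060.1 CPM in mature dendritic cells, where all 26 NAM cells (100%) exceeded the untreated median. The 4 maturity markers that this gate did not use (Ccl22, Cacnb3, Il4i1 and Cd200) summed to 946 CPM in its untreated and 2451 CPM in its NAM cells, none of them at 0 over both libraries, and their part in the ratios of this gate was not tested. The median UMIs per cell of this gate also differed, 9908 in untreated and 6402.5 in NAM cells. H2-D1 held 2487 UMIs in the 39 untreated and 1656 UMIs in the 26 NAM cells, so its ratio is one of shares and not of UMIs per cell. Thinning was not run on the ratios of this gate alone, and the part of depth in them was not tested. In cDC1 H2-D1 went from 3027 to 4817 CPM, a ratio of 0.67 (0.56 to 0.78). The 5 macrophage gates lay close together, between 0.46 and 0.51, and interferon-high myeloid cells, at 0.49 (0.46 to 0.53), lay among them.

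Lymphocytes showed smaller H2-D1 ratios than macrophages, though none below that of Ly6c2 monocytes. H2-D1 went from 7033 to 8392 CPM in CD8 T cells (0.25, 0.20 to 0.31), from 8576 to 10543 CPM in regulatory-like T cells (0.30, 0.24 to 0.36), from 6681 to 8384 CPM in other CD8-negative T cells (0.33, 0.21 to 0.44) and from 6736 to 8261 CPM in NK cells (0.29, 0.20 to 0.38). These 4 intervals did not overlap that of macrophages, but that of other CD8-negative T cells overlapped Cd209a dendritic cells (0.39 to 0.57). In NK cells 51.3% of NAM cells lay above the untreated median, and the ratio was 0.17 as a mean over cells and 0.18 after thinning every cell to 3000 UMIs.

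The background shows how far H2-D1 stood out. Of the 218 genes with 200 or more UMIs in every gate, 10 (4.59%) were higher in NAM in all 14 gates and 13 (5.96%) lower in all, and H2-D1 had the largest median ratio of the 10, 0.47. Psme2, a subunit of the proteasome activator PA28 and itself part of antigen processing, came second with a median of 0.29 (0.07 to 0.50 over gates). The other 8 were mt-Nd1, mt-Atp6, Clic1, Cd52, Rps23, Pfn1, Rpl13 and Atp6v0e, none of them a class I gene. All gates share the same 2 libraries and are not independent of each other.

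B2m, the light chain, was at 7682 and 8100.1 CPM in macrophages, a ratio of 0.08 (0.07 to 0.09), and at 8247 and 7617 CPM in T cells, −0.11 (−0.15 to −0.07). Its ratio was above 0 in 9 of 14 gates. It was past 1.2-fold (0.26 on the log2 scale) only in mature dendritic cells, from 6120 to 7577 CPM (0.31, 0.21 to 0.40). In that gate the maturity markers and the median UMIs per cell (9908 untreated, 6402.5 NAM) differed between libraries. In regulatory-like T cells B2m was lower in NAM, 9519 and 8826 CPM (−0.11, −0.17 to −0.05), in the same cells in which H2-D1 was higher. H2-K1, the other classical heavy chain, lay between them: 2552 and 2856 CPM in macrophages (0.16, 0.15 to 0.18), past 1.2-fold in Cd209a (0.29) and mature dendritic cells (0.45, 0.30 to 0.60) only, and −0.03 (−0.10 to 0.04) in Ly6c2 monocytes. The intervals of H2-D1 and of B2m did not overlap in any of the 14 gates.

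**Figure D1:**
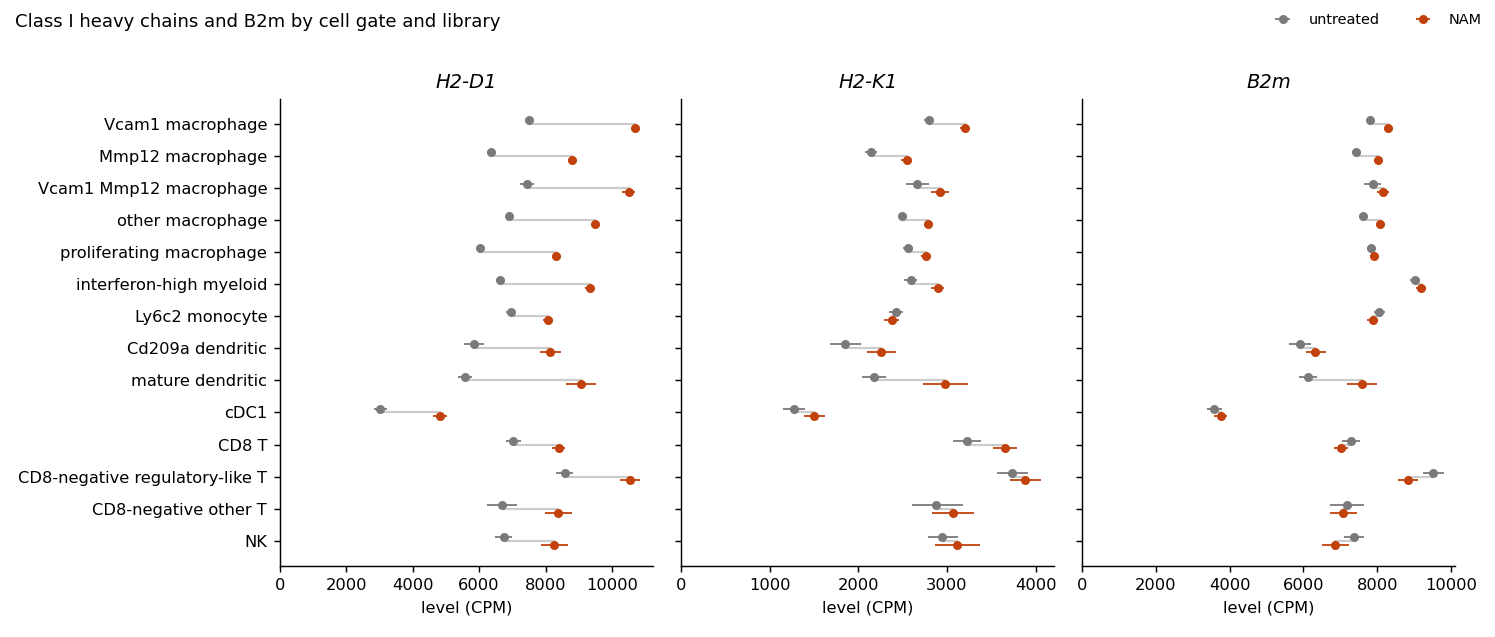
Levels of H2-D1, H2-K1 and B2m (horizontal axes, CPM from 0) in the 14 gates, grey for the untreated and orange for the NAM library, 1 library each, with exact 95% Poisson intervals. The NAM point of H2-D1 lies to the right of the untreated point in every gate, cDC1 lie lowest for all 3 genes, and the points of B2m lie close together except in mature dendritic cells (6120 and 7577 CPM).

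**Figure D2:**
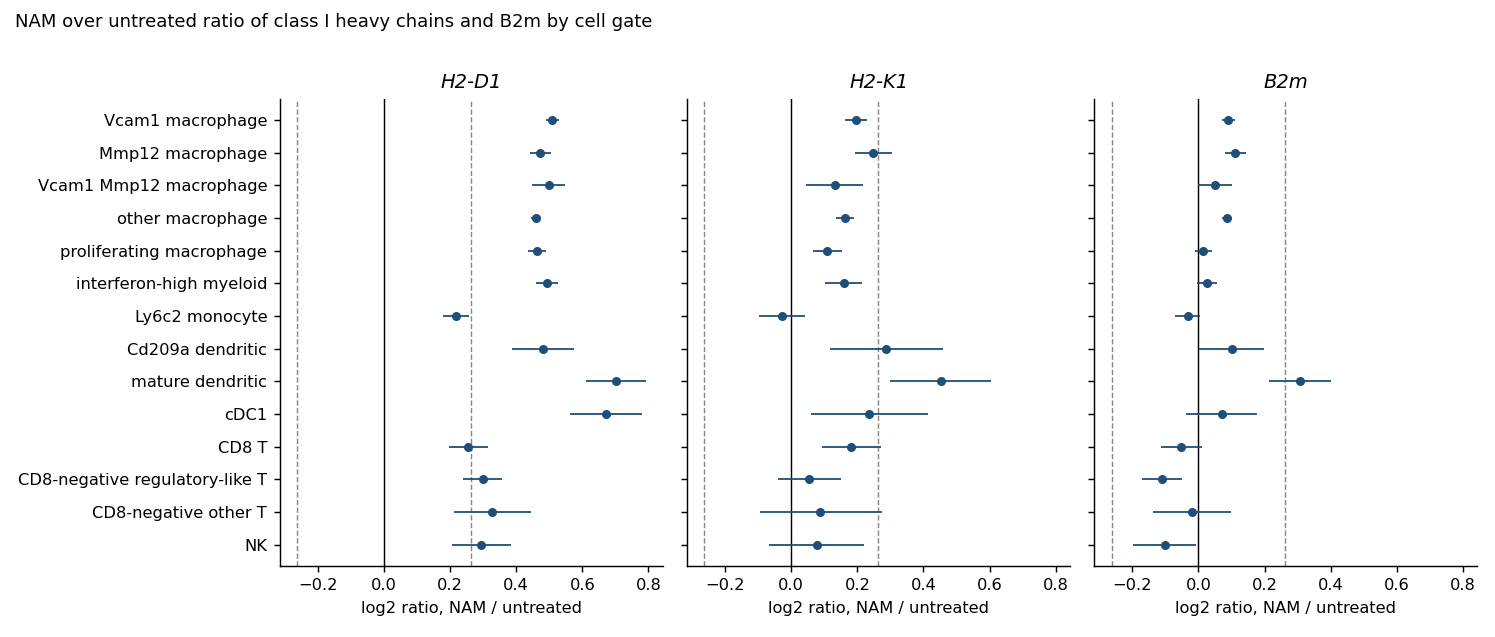
Log2 ratio of NAM over untreated (horizontal axes) for H2-D1, H2-K1 and B2m in the 14 gates, with exact conditional binomial 95% intervals from counting error; dashed lines mark 1.2-fold. H2-D1 runs from 0.22 to 0.70, and B2m from −0.11 to 0.31.

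The order of cell types differed between the class I molecule and the genes that supply its peptides. In the untreated library H2-D1 was highest in regulatory-like T cells (8576 CPM), above the next gate beyond counting error. Then came Vcam1 macrophages (7512 CPM), macrophages with both markers (7434 CPM), CD8 T cells (7033 CPM), Ly6c2 monocytes (6952 CPM), other macrophages (6896 CPM), NK cells (6736 CPM), other CD8-negative T cells (6681 CPM) and interferon-high myeloid cells (6634 CPM), each with an interval that overlapped that of its neighbour. Mmp12 macrophages (6346 CPM) lay below interferon-high cells and above proliferating macrophages (6038 CPM) without overlap. Proliferating macrophages, Cd209a (5841 CPM) and mature dendritic cells (5573 CPM) overlapped from one to the next, and cDC1 (3027 CPM) lay lowest, apart from the rest. H2-K1 (3737 to 1276 CPM) and B2m (9519 to 3581 CPM) had the same highest and lowest gates. These orders are of shares of transcripts, and an order by UMIs per cell can differ. Median UMIs per untreated cell were 4831.5 in regulatory-like T cells, 10030 in Vcam1 macrophages and 15647 in cDC1.

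cDC1, the dendritic cells specialised in presenting antigen taken up from other cells on class I, had the highest untreated levels of Psmb8 (1480.0 CPM), Psmb9 (1376 CPM) and Tap1 (326 CPM) of all gates, along with the lowest of the 3 genes above. Mature dendritic cells came second for these genes, with Psmb8 at 1165 CPM, Psmb9 at 766 CPM and Tap1 at 255 CPM, the Psmb8 interval overlapping those of interferon-high myeloid, regulatory-like T and CD8 T cells. The cDC1 intervals of Psmb8 and Psmb9 lay apart from those of all other gates, whereas that of Tap1 (267 to 394) overlapped mature dendritic (211 to 307) and regulatory-like T cells (195 to 283). Mmp12 macrophages had the lowest Psmb8 (505 CPM), Psmb9 (207 CPM), Tap1 (62.7 CPM) and Tap2 (48.6 CPM) in the untreated library. For Tap1, NK cells at 71.5 CPM (47.9 to 103) overlapped with them, as did other CD8-negative T cells, which also overlapped for Psmb9. For Tap2 (39.4 to 59.3), macrophages with both markers (46.6 to 88.9), other macrophages (58.1 to 69.1) and Cd209a dendritic cells overlapped. The highest Tap2 level was that of regulatory-like T cells (221 CPM, 182 to 267), with an interval that met those of mature dendritic (114 to 188), cDC1 and other CD8-negative T cells. The highest Psmb10 level was that of interferon-high myeloid cells (413 CPM, 384 to 444), which overlapped Cd209a dendritic cells (245 to 391) and other CD8-negative T cells.

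In macrophages both genes of the peptide transporter were higher in NAM, Tap2 by more than Tap1. There Tap2 went from 67.5 to 105 CPM (0.63, 0.53 to 0.73) and Tap1 from 118 to 147 CPM (0.33, 0.25 to 0.41), and these intervals did not overlap. In dendritic cells Tap2 went from 130.4 to 259 CPM (0.99, 0.68 to 1.30), with 1.18 (0.69 to 1.70) in cDC1 from fewer than 200 UMIs, against 256 and 302 CPM for Tap1 (0.24, −0.01 to 0.48). After thinning, the dendritic ratios were 1.10 for Tap2 and 0.78 for Tap1. In Ly6c2 monocytes Tap2 went from 119 to 172 CPM (0.53, 0.23 to 0.83), and in CD8 T cells from 120.5 to 191 CPM (0.66, 0.22 to 1.12). Tap1 was at 189 and 179 CPM in CD8 T cells (−0.08, −0.47 to 0.32). In interferon-high myeloid cells the order was the other way, with Tap1 at 201 and 237 CPM (0.24, 0.03 to 0.44) and Tap2 at 116 and 131 CPM (0.18, −0.09 to 0.45), intervals that overlapped. In regulatory-like T cells neither gene differed beyond counting error, Tap1 at 236 and 264 CPM (0.16, −0.21 to 0.54) and Tap2 at 221 and 213 CPM (−0.06, −0.46 to 0.35).

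With every cell thinned to 3000 UMIs, 17.3% of untreated and 26.0% of NAM macrophages held a Tap2 UMI, and 26.5% and 32.6% a Tap1 UMI (44.4% and 59.2%, and 56.8% and 67.2%, unthinned). In dendritic cells 30.0% and 51.0% held a Tap2 UMI (64.4% and 74.0% unthinned). No gate is known to lack these transcripts, so no share from a cell type without them stands beside these. Tapbp, the tapasin gene, was at 264 and 277 CPM in macrophages (0.07, 0.02 to 0.13) and at 345 and 276 CPM in T cells (−0.32, −0.53 to −0.12). In T cells the ratio was −0.14 as a mean over cells and −0.09 after thinning, both within 1.2-fold.

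**Figure D3:**
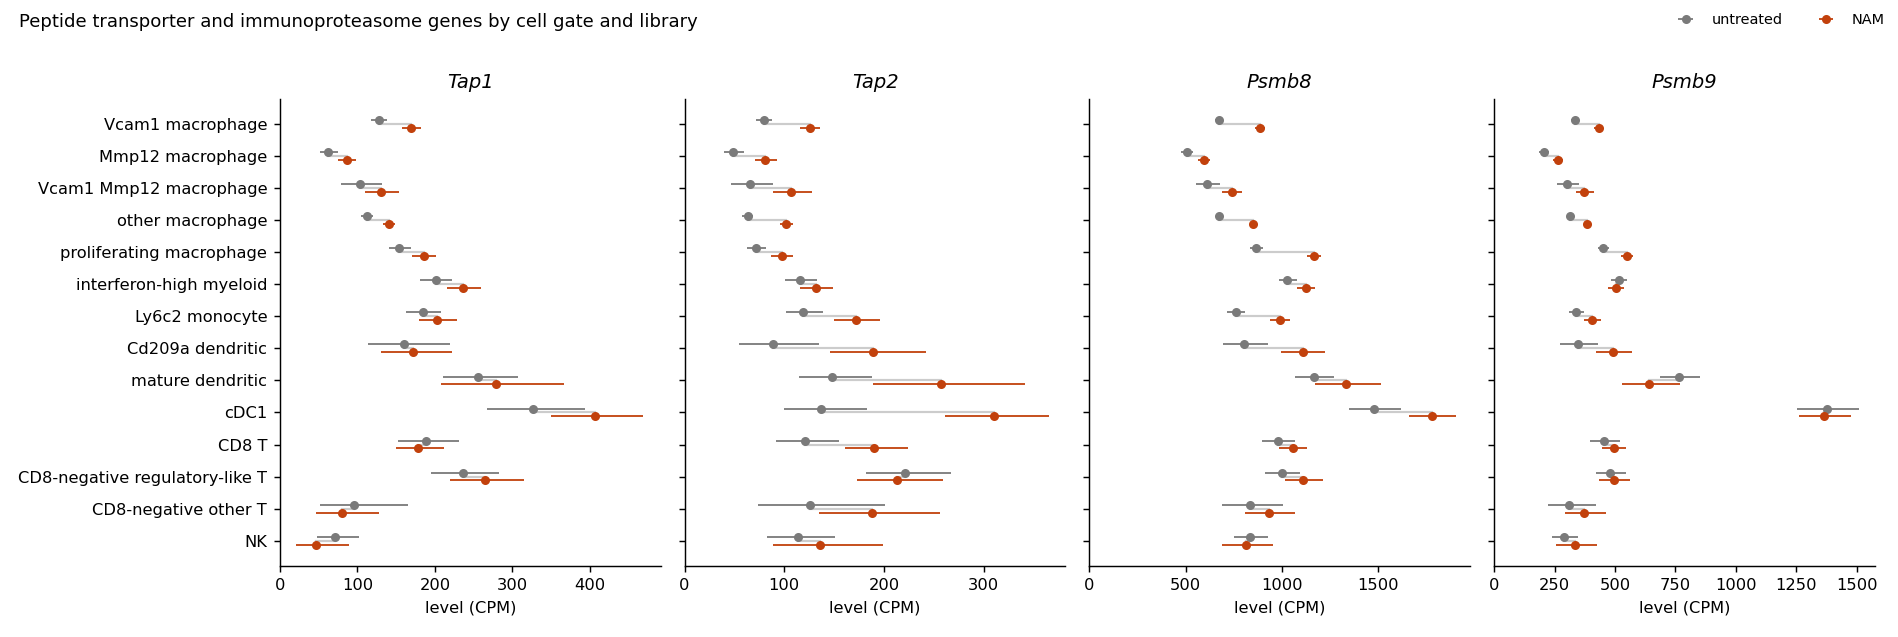
Levels of Tap1, Tap2, Psmb8 and Psmb9 (horizontal axes, CPM from 0) in the 14 gates, grey for the untreated and orange for the NAM library, 1 library each, with exact 95% Poisson intervals. cDC1 lie highest for Psmb9 in both libraries (1376 and 1364 CPM), and Tap2 in cDC1 lies at 137 and 311 CPM.

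The 3 inducible proteasome subunits were higher in NAM macrophages by similar amounts. Psmb8 went from 685 to 871 CPM (0.35, 0.31 to 0.38), Psmb9 from 330 to 406 CPM (0.30, 0.25 to 0.35) and Psmb10 from 221 to 271 CPM (0.30, 0.24 to 0.35). In Ly6c2 monocytes Psmb8 went from 761 to 989 CPM (0.38, 0.26 to 0.50) and Psmb9 from 339 to 406 CPM (0.26, 0.08 to 0.44), and Psmb10 was at 288 and 304 CPM (0.08, −0.13 to 0.28), with overlapping intervals. In dendritic cells Psmb8 was at 1183 and 1466 CPM (0.31, 0.20 to 0.42; 0.04 after thinning), Psmb9 at 865 and 929 CPM (0.10, −0.03 to 0.24) and Psmb10 at 234 and 214 CPM (−0.13, −0.40 to 0.14). These pooled values joined gates that differed, since Psmb9 had ratios of 0.51 (0.12 to 0.91) in Cd209a, −0.26 (−0.58 to 0.05) in mature dendritic cells and −0.01 (−0.19 to 0.16) in cDC1. Psmb10, with fewer than 200 UMIs in each of them, had −0.51 (−0.99 to −0.02), −0.03 (−0.59 to 0.49) and 0.21 (−0.28 to 0.71). The make-up of the pool also differed, with 21 of 90 untreated and 31 of 96 NAM cells being cDC1 and 39 and 26 mature. T cells had Psmb8 at 971 and 1056 CPM (0.12, 0.01 to 0.23), Psmb9 at 449 and 476 CPM (0.09, −0.08 to 0.25) and Psmb10 at 179.5 and 197 CPM (0.13, −0.13 to 0.40), again with overlapping intervals. In interferon-high myeloid cells Psmb9 (517 and 504 CPM) and Psmb10 (413 and 410.3 CPM) had ratios of −0.04 and −0.01, from untreated levels above those of every macrophage gate.

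Each inducible subunit takes the place of a constitutive one, Psmb8 of Psmb5, Psmb9 of Psmb6 and Psmb10 of Psmb7. The inducible share of the UMIs of a pair was higher in NAM macrophages for all 3 pairs. It went from 80.0% (79.4 to 80.7) to 82.9% (82.4 to 83.4) for Psmb8, from 47.7% (46.9 to 48.6) to 51.5% (50.7 to 52.3) for Psmb9 and from 54.8% (53.6 to 55.9) to 59.5% (58.5 to 60.5) for Psmb10. All 15 values of the 5 macrophage gates were higher in NAM; after thinning, the Psmb9 share of Mmp12 macrophages was not (37.6% and 36.9%). In T cells the Psmb8 share was lower in NAM, 84.5% (82.4 to 86.4) and 81.7% (79.8 to 83.4), or 83.7% and 82.6% after thinning. Constitutive Psmb5 was at 179 and 237 CPM there (0.41, 0.15 to 0.67).

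Across cell types of the untreated library the Psmb9 share spanned the widest range, from 32.7% (30.1 to 35.3) in Mmp12 macrophages to 81.4% (78.0 to 84.6) in cDC1. The Psmb8 share lay between 72.2% (Mmp12 macrophages) and 89.0% (cDC1). The Psmb10 share was ordered differently, highest in interferon-high myeloid cells (69.3%, 66.4 to 72.0) and lowest in cDC1 (42.0%, 33.7 to 50.7). Of these extremes, only the Psmb9 share of cDC1 had an interval apart from all other gates. These are shares of captured 3′ transcripts and not of assembled proteasomes.

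**Figure D4:**
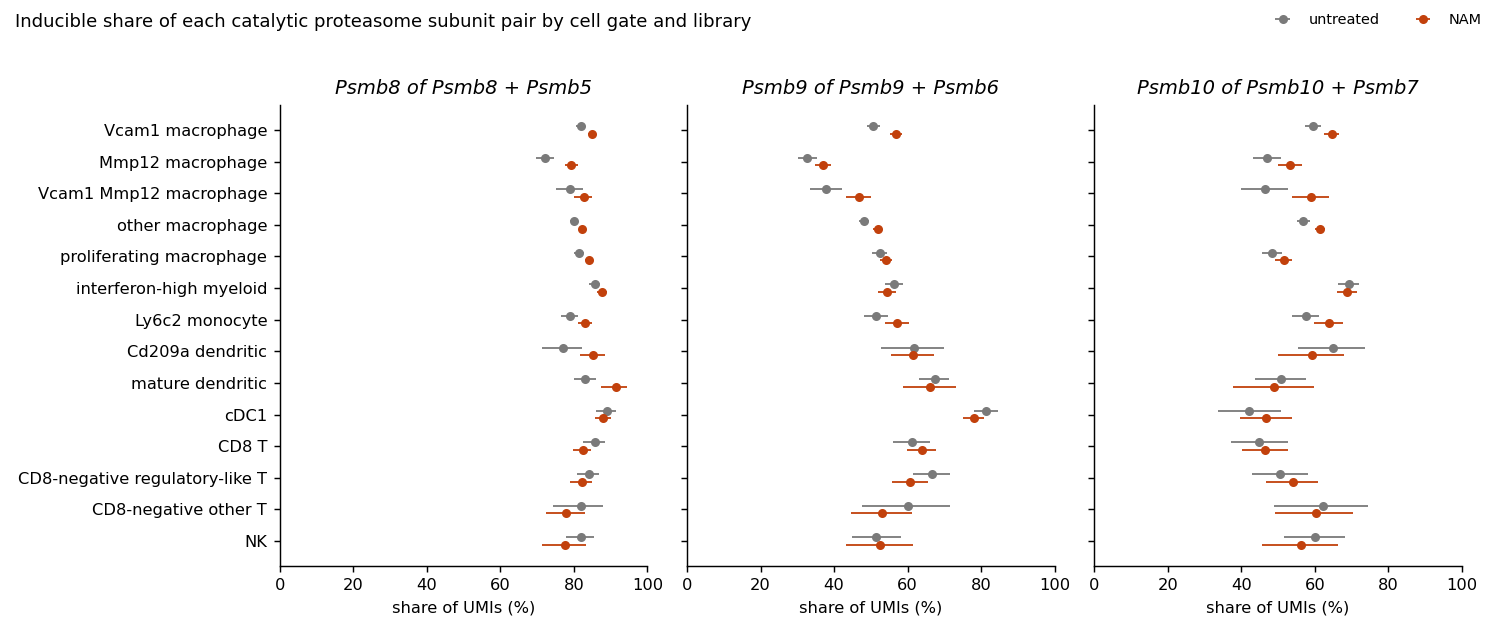
Inducible share of the UMIs of each catalytic subunit pair (horizontal axes, percent) in the 14 gates, grey for the untreated and orange for the NAM library, 1 library each, with exact Clopper-Pearson 95% intervals. In the macrophage gates the NAM point lies to the right in all 3 panels, and Psmb9 spans the widest range, from 32.7% in Mmp12 macrophages to 81.4% in cDC1.

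Nlrc5, the class I transactivator, was scarce. It was at 10.9 and 14.1 CPM in macrophages (0.37, 0.11 to 0.63), and of the 14 gates only other macrophages held 200 or more of its UMIs (9.71 and 15.0 CPM, 0.62, 0.21 to 1.04). Its untreated level was highest in interferon-high myeloid cells, 26.7 CPM (19.8 to 35.4), overlapping several gates of few UMIs, and the NAM level was 25.6 CPM (−0.06, −0.67 to 0.54). After thinning, 3.12% of untreated and 4.57% of NAM macrophages held a UMI (10.5% and 13.8% unthinned). In dendritic, T and NK cells a difference of Nlrc5 was not detectable at this depth.

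Counted over the list, macrophages had 7 of 10 members past 1.2-fold higher in NAM and none past it lower, with B2m, H2-K1 and Tapbp within the fold. Of the 7, Psmb9 and Psmb10 went under the fold in some alternatives, down to 0.25 and 0.26. Among the 8371 genes with 200 or more UMIs in macrophages 6.07% were past it higher and 15.3% lower, and the median ratio was 0.31 for the members and −0.02 for those genes. Tap2 ranked 52nd and H2-D1 123rd of the 8371 by ratio. The macrophage gates gave 6 of 9 members with enough UMIs in Vcam1 macrophages (background 9.24%), 5 of 9 in Mmp12 macrophages (11.6%), 4 of 8 in macrophages with both markers (12%), 7 of 10 in other macrophages (7.5%) and 6 of 9 in proliferating macrophages (10.2%), with medians between 0.26 and 0.39. In interferon-high myeloid cells H2-D1 alone of 9 was past the fold (11.6%), and the median was 0.08.

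In Ly6c2 monocytes 2 of 9 members, Tap2 and Psmb8, were past the fold (15.2% of genes), a share near the background, with a median of 0.11. In dendritic cells together 3 of 9 were past it (H2-D1, Tap2 and Psmb8; 17.1%) with a median of 0.21. After thinning the median was 0.07, Psmb8 (0.04) went under the fold and Tap1 (0.78) passed it. By gate there were 4 of 6 in Cd209a (19.8%), 3 of 6 in mature (18.6%) and 3 of 7 in cDC1 (22.1%). In T cells none of 9 was past it higher (16.5%) and Tapbp was past it lower (11.8%), with a median of 0.11 against 0.05 for all genes tested. CD8 T cells had Tap2 past it higher (1 of 8; 16.1%) and Tapbp lower (1 of 8; 10.2%), regulatory-like T cells 1 of 8 (19.2%), other CD8-negative T cells 1 of 4 (23.5%) and NK cells 1 of 4 (17.7%). In the last 3 gates the member past the fold was H2-D1. Markers of Cd209a dendritic cells that the gates did not use (Cd209d, Ifitm1, Flt3 and Mgl2) summed to 530 and 1243 CPM in untreated and NAM Ly6c2 monocytes, 356 and 29.8 CPM in regulatory-like T cells and 518 and 26.1 CPM in NK cells. Most of the sum over both libraries was Ifitm1, 832 of 876 CPM in monocytes and 353 of 360.0 CPM in NK cells, and the part of these markers in the counts was not tested. Neutrophil markers summed to 14.2 and 226 CPM in untreated and NAM regulatory-like T cells. Mast cell or basophil markers summed to 185 and 0 CPM in other CD8-negative T cells, and the part of either was not tested.

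**Figure D5:**
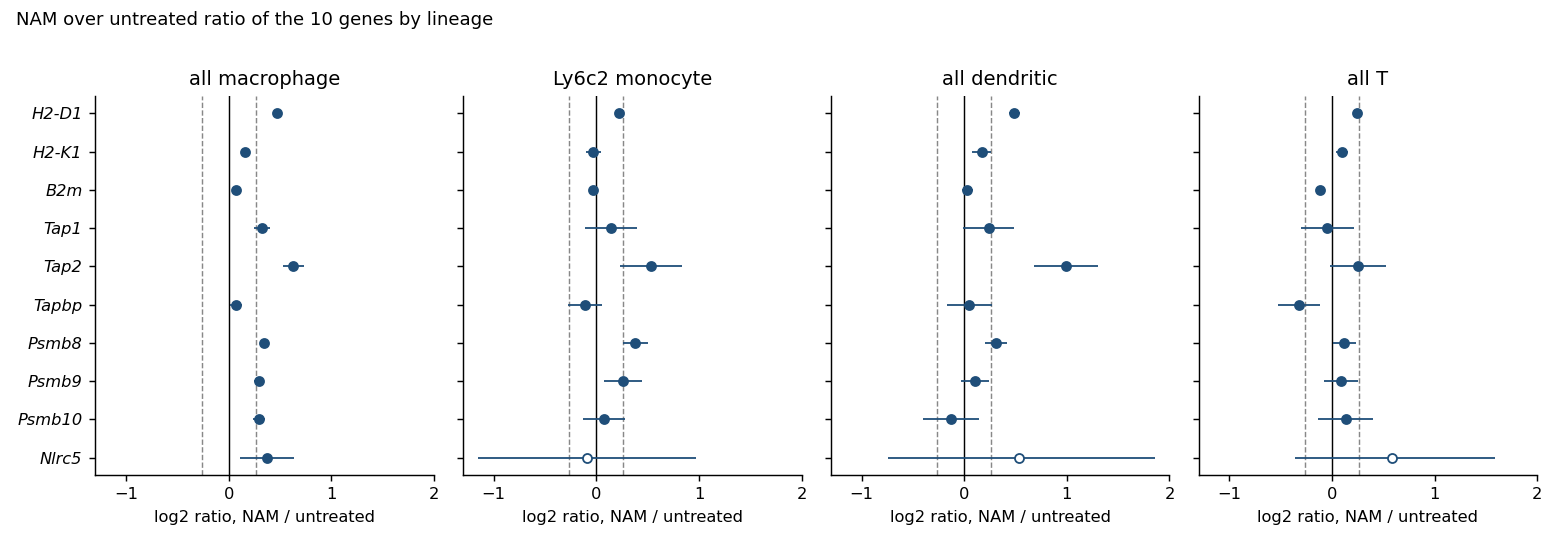
Log2 ratio of NAM over untreated (horizontal axes) for the 10 genes in macrophages, Ly6c2 monocytes, dendritic cells and T cells, with exact 95% intervals from counting error; dashed lines mark 1.2-fold and open points have fewer than 200 UMIs. In macrophages all 10 points lie above 0, and in T cells Tapbp lies at −0.32.

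Other genes of the pathway, in 4 further lists, were read in the same way. Of other heavy chains with 200 or more UMIs in macrophages, 3 of 6 were past 1.2-fold higher, H2-Q6 (35.5 and 54.4 CPM, 0.62, 0.48 to 0.76), H2-T22 (103 and 138 CPM, 0.43, 0.34 to 0.51) and H2-Q4 (163 and 196 CPM, 0.27, 0.20 to 0.34) and none was past it lower. Among all genes tested in macrophages the shares were 6.07% higher and 15.3% lower, beside which this and the next counts are to be read. These genes have near-identical relatives, among which reads could be split. Of 16 other processing and loading genes only Psme2 (382 and 509.5 CPM, 0.42, 0.37 to 0.46) and the oligopeptidase gene Thop1 (10.5 and 12.8 CPM, 0.28, 0.01 to 0.56) were past the fold. None of the 14 constitutive 20S genes was, and their median was 0.10.

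Among 21 factors that control class I genes and had enough UMIs, 2 were past the fold higher and 2 lower in macrophages, beside 6.07% and 15.3% of all genes. Irf1, an interferon-induced activator of class I genes, went from 75.9 to 132 CPM (0.80, 0.70 to 0.89) and Irf2 from 46.3 to 55.7 CPM (0.27, 0.14 to 0.40). Jak2, a kinase of the interferon gamma receptor, went from 18.5 to 10.6 CPM (−0.81, −1.06 to −0.56) and Nfkb1 from 129.8 to 81.3 CPM (−0.68, −0.77 to −0.59). In T cells 3 of 7 such factors were past the fold higher (16.5% of all genes) and 1 lower (11.8%). The higher ones were Irf1 (57.8 and 96.0 CPM, 0.73, 0.30 to 1.18), Irf8 (407 and 557 CPM, 0.45, 0.29 to 0.62) and Ifnar1 (119 and 144 CPM, 0.27, −0.05 to 0.59), and the lower one Nfkb1 (224 and 131 CPM, −0.78, −1.06 to −0.50). In dendritic cells 1 of 6 was past it higher (17.1%), Ifngr2 (90.9 and 125 CPM, 0.46, 0.06 to 0.87), and 2 lower (17.6%), Nfkb1 (207 and 113 CPM, −0.87, −1.22 to −0.54) and Ifnar1 (126 and 97.9 CPM, −0.37, −0.77 to 0.02). The study named Irf1, like H2-D1, in macrophages and monocytes from these libraries.

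In Ly6c2 monocytes 15.2% of all genes were past the fold higher and 18.5% lower. Of 9 control factors 2 were past it higher and 1 lower. Of these Irf1 went from 127 to 236 CPM (0.90, 0.62 to 1.17), whereas Nfkb1 went from 267 to 89.5 CPM (−1.58, −1.89 to −1.27). Of 7 processing genes with enough UMIs, 2 were past it higher and 3 lower. The activator subunit Psme2 (623 and 771 CPM, 0.31, 0.18 to 0.44) was the larger of those past it higher. The endoplasmic reticulum chaperones Calr (599 and 413 CPM, −0.54, −0.69 to −0.38), Canx (181 and 115 CPM, −0.65, −0.96 to −0.36) and Hspa5 (1166 and 826 CPM, −0.50, −0.61 to −0.38), of which Calr and Canx help class I to fold, were past it lower. Of 5 other heavy chains 2 were past it in each direction, H2-T22 at 97.5 and 136 CPM (0.48, 0.15 to 0.82) and H2-T23 (−0.37, −0.64 to −0.10) with the largest ratios.

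Cxcl9, a chemokine gene induced by interferon gamma, split macrophages further. After thinning, 25.4% of untreated and 38.0% of NAM macrophages held a Cxcl9 UMI. H2-D1 was higher in NAM both in macrophages with one (7489 and 9909 CPM, 0.40, 0.39 to 0.42) and in those without (6670 and 9335 CPM, 0.48, 0.47 to 0.50). Tap2 ratios were 0.46 (0.31 to 0.62) and 0.60 (0.46 to 0.73), and Psmb8 ratios 0.21 (0.16 to 0.27) and 0.35 (0.31 to 0.39). Tapbp had ratios of opposite sign, −0.09 with and 0.08 without a Cxcl9 UMI. In Ly6c2 monocytes the order was the other way for H2-D1, 0.32 (0.24 to 0.40) with and 0.15 (0.11 to 0.20) without a Cxcl9 UMI. There H2-K1 had 0.14 (−0.01 to 0.29) with and −0.11 (−0.19 to −0.03) without. This split was chosen after the values had been seen.

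Over all cells, holding the share of each gate at that of both libraries pooled gave 0.47 for H2-D1 against 0.46 as measured, 0.58 against 0.56 for Tap2, 0.31 against 0.30 for Psmb8 and 0.07 against 0.06 for B2m.

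Over the 21 pools of a gate and a library with 400000 or more UMIs, Tap1 (r = 0.79), Tap2 (0.72) and Tapbp (0.68) followed the mean standardised level of the 10 members most closely, and B2m least (0.27). These correlations include the gene in the mean, come from pools that share 2 libraries, and are descriptions. The minimum left out Cd209a dendritic and other CD8-negative T cells. It kept only the untreated library of mature dendritic and NK cells and only the NAM library of cDC1. Of 203 other genes compared, Psme2 was most like the mean of the members (r = 0.72), followed by Ubb (0.56), Cd52 (0.43), Ube2d3 (0.43), Hnrnpa2b1 (0.40), Arhgdib (0.39), Tmbim6 (0.38), Hnrnpk (0.37), Coro1a (0.36) and H3f3b (0.36).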

How the data were processed

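CD45+ cells of 1 untreated and 1 NAM pool of 3 mice were profiled with 10x Genomics Single Cell 3′ version 2 chemistry. The authors deposited raw UMI counts per gene and cell made with Cell Ranger on mm10, with no normalization; the annotation version is not given in the sources used here. Every cell of the files held over 3000 UMIs. UMIs were summed per gate and library and divided by the gate's total (CPM, a share of transcripts and not an amount per cell), with exact Poisson, conditional binomial (ratios) or Clopper-Pearson (shares) 95% intervals. Genes with 200 or more UMIs in a gate over both libraries formed the background, and a gene was counted when past 1.2-fold. List medians used members with 20 or more UMIs and a pseudocount of 0.5 UMI. Cells were thinned to 3000 UMIs (seed 1), which left out 0 cells. Gate thresholds were set on marker counts. No doublets were removed, and 235 cells held markers of several lineages. Named genes were the members, up to 4 genes of each further list past the fold in a gate, by size, and the 10 genes closest to the members' mean level. The members and lists were chosen with earlier results of these data known. The scripts were tested on simulated data and used Python 3.11.15, numpy 2.4.6, scipy 1.17.1 and pandas 2.3.3. Alternatives were other scalings, totals, gates, minimum counts, pseudocounts, thinning, means over cells and cells left out. One gene of a further list is not reported here.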

Additional observations from a re-analysis of the deposited data

Results flagged for a closer look

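B2m and Tapbp were singled out because their intervals lay above 0 in macrophages and below 0 in T cells, for B2m also in NK cells; the difference itself was not tested, since each group was 1 library. B2m had log2 ratios of 0.076 in macrophages, −0.11 in T cells and −0.10 in NK cells (7362 and 6857 CPM). Tapbp had 0.071 in macrophages and −0.32 in T cells, the latter −0.09 after thinning.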

How the results depend on the processing

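No paired analysis was possible because each group was 1 library. The median ratio of the members moved by less than the median half-width of the members' intervals under all 13 alternatives in each of the 5 lineages. That width is the counting error of single genes and a loose measure, since medians that crossed 0 also met it. The median stayed between 0.28 and 0.34 in macrophages and above 0 in dendritic cells (0.07 after thinning) and T cells, but was −0.01 in Ly6c2 monocytes without cells that held a Cxcl9 UMI and ran from −0.11 to 0.15 in NK cells. Of 410 member values under an alternative, 373 stayed within the main interval, 12 had the other sign, and none of these 12 was past 1.2-fold in the main setting. H2-D1 stayed between 0.47 and 0.50 in macrophages, 0.15 and 0.24 in Ly6c2 monocytes, 0.35 and 0.53 in dendritic cells, 0.19 and 0.32 in T cells and 0.17 and 0.31 in NK cells. Of 41 ratios of a member in a lineage, 14 were past the fold in the main setting. Of these 14, 5 fell under it in some alternative: H2-D1 in NK cells, Psmb8 in dendritic cells (0.04 after thinning), Tapbp in T cells, and Psmb9 and Psmb10 in macrophages (both down to 0.25 or 0.26). Leaving out the haemoglobin-rich cells and cells with a Cxcl9 UMI was added after seeing the data. With a minimum of 50 or 1000 UMIs the background share past the fold was 8.54% or 4.93% in macrophages and 25.8% or 9.26% in NK cells. Depth (fewer than 200 UMIs) limits Nlrc5 in all gates but other macrophages, and every member but H2-D1, H2-K1, B2m and Psmb8 in NK cells. All intervals cover counting error only.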
